A study of Mus musculus with 25 samples.

Results

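The macrophage and complement C1q genes are a set of 10: *Csf1r*, *Cd68*, *Adgre1*, *Aif1*, *C1qa*, *C1qb*, *C1qc*, *Cx3cr1*, *Trem2* and *Ptprc*. They were taken by their gene symbols, with no threshold on a measured value. All 10 were listed in both expression tables of the study, which hold 15768 genes between them, and all 10 passed the filter on low reads in both.

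The samples were 25 pituitaries of shRB mice, in which loss of *Rb1* gives tumors of the intermediate lobe. These mice carry a reverse tetracycline transactivator (rtTA) driven by the broadly active *Rosa26* promoter and, at the *Col1a1* locus, 1 doxycycline-inducible shRNA against *Rb1* linked to GFP, and they derive from a single embryonic stem cell clone, shRb5-4. Doxycycline (dox) in the drinking water of adult mice knocks *Rb1* down in many tissues, so blood-derived and resident macrophages carry the transgenes too, and its removal lets *Rb1* return. In the long-term experiment, mice had 6 weeks of dox (6w+dox, 3 females), 12 weeks of dox (12w+dox, 2 females and 2 males) or 6 weeks of dox followed by 6 weeks without it (12w-res, 3 females and 2 males). In the short-term experiment, mice had 16 weeks of dox (16w +dox, 3 males) or the same 16 weeks and then 1 day (1d -dox, 4 females), 3 days (3d -dox, 3 males) or 5 days (5d -dox, 3 females) without it. Every mouse thus carried both transgenes and had been on dox, and a group that was never on dox was not analysed here. Dox water held sucrose and the water after dox removal did not. The mice were young adults when dox began, and each sample was taken as 1 mouse.

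Tissue macrophages are phagocytes that the receptor CSF1R keeps alive in response to CSF1 and IL-34, and the microglia of the brain are their best-known resident form. They make most of the C1q of a tissue: the proteins of *C1qa*, *C1qb* and *C1qc* assemble into the recognition unit of the classical complement pathway, which binds immune complexes and dying cells and then engages the proteases C1r and C1s. TREM2, with its signalling partner TYROBP, senses lipids and cell debris on the same cells, and CX3CR1 receives the chemokine CX3CL1.

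Levels are given in FPM, fragments of a gene per 1e6 mapped fragments, scaled with the size factors of DESeq2. In this bulk RNA, fewer macrophages and less RNA per macrophage cannot be told apart. The 12 long-term libraries (poly(A)-selected) held 19066053 to 28968476 reads on genes and the 13 short-term libraries (depleted of ribosomal RNA) held 9573101 to 13036900. Because 68.8 to 75.0% of the reads of a short-term library lay on lines without a gene and are part of its FPM scale, levels were compared only within an experiment. *Rb1* was at 16.1 to 20.3 FPM in 12w-res and at 1.86 to 5.09 FPM in the 7 other long-term mice, and GFP averaged 1246 FPM in 16w +dox and 11.7 FPM in 5d -dox. *Pomc*, the hormone gene of melanotrophs and corticotrophs, took 39.1 to 43.2% of the reads on genes in 12w-res, 12.9 to 23.0% in 12w+dox and 13.6 to 32.2% in 6w+dox.

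The upstream sequences of members are shown because the myeloid transcription factor PU.1, encoded by *Spi1*, binds sites with the core GAGGAA, and this core can be read directly in them. RefSeq promoter windows (GRCm38.p6, the build of the files) matched 7 of the 10 members, while *C1qa* and *Adgre1* had no entry and that of *Csf1r* was not used. GAGGAA or its reverse complement TTCCTC lay within the 250 bases before a start site of 6 of the 7 (*Aif1*, *C1qb*, *C1qc*, *Cd68*, *Ptprc* and *Trem2*). *Ptprc* has a further window, with its start at 138175126, that lacks it. Of all 32851 such windows 23.3% hold it, a share counted by window, while the 6 of 7 are counted by gene. No other motif was searched. Only bases outside annotated exons are printed, on the gene's own strand from 5′ to 3′, with the core in capitals. *C1qb* (chr4:136886201-136886450, minus strand) has it 30 bases before its start, *Trem2* (chr17:48346151-48346400, plus strand) 40 bases before, *C1qc* (chr4:136893066-136893164, minus strand) 193 bases before and *Cd68* (chr11:69666171-69666420, minus strand) 225 bases before. Distances are from the RefSeq start sites. For *C1qb* and *Cd68* no GENCODE transcript of the members held the first 30 bases after this start unbroken, so their distances depend on the RefSeq start. For *C1qc* 151 of the 250 bases before the start lie in annotated exons, so its core is closer to an annotated exon than to this start. For *Aif1* 16 of the 250 bases are exonic, and its core, 7 bases before the start, lies within them. A match describes these letters and does not show binding.
C1qb: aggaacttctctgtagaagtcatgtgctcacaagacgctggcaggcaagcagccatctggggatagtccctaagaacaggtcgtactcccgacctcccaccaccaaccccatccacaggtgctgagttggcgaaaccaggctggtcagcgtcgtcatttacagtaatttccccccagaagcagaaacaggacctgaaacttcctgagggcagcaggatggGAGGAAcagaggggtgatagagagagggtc
Trem2: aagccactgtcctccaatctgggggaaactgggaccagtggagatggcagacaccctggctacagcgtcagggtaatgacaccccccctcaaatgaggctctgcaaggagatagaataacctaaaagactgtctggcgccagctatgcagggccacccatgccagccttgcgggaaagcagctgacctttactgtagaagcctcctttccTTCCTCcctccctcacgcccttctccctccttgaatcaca
C1qc: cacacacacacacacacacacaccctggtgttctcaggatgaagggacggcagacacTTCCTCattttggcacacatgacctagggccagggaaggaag
Cd68: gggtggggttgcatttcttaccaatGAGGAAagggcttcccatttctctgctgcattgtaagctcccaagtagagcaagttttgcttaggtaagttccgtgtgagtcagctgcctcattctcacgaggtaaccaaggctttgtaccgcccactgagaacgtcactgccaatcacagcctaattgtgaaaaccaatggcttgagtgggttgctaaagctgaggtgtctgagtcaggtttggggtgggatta

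The C1q genes lie side by side. *C1qb*, *C1qc* and *C1qa*, in this order and all on the minus strand, fill 18.719 kb of chromosome 4 (136880126 to 136898844, GRCm38.p6) with no other gene between them. Their levels also led the set. Per kilobase of transcript, *C1qb* averaged 41.5 FPM, *C1qa* 40.4 FPM and *C1qc* 28.8 FPM in 12w-res, followed by the lysosomal protein gene *Cd68* at 12.1 FPM and *Csf1r* at 7.24 FPM. *Trem2* came next at 5.51 FPM, then *Cx3cr1* at 3.78 FPM, *Aif1* at 3.55 FPM, *Adgre1* at 1.69 FPM and *Ptprc* at 1.53 FPM per kb. By group means, *C1qa*, *C1qb* and *C1qc* took the highest 3 places and *Cd68* the next in all 7 groups. In 5d -dox *C1qb* and *Cd68* were nearly equal, at 1.747 and 1.745 FPM per kb, with overlapping ranges of 1.60 to 1.91 and 1.66 to 1.88. *C1qa* and *C1qb* did not separate from each other in 12w-res, where their ranges per kb were 34.6 to 48.3 and 34.1 to 54.9 FPM. *Cd68* stood clear of *C1qc* above it (8.25 to 16.5 against 20.8 to 35.9 FPM per kb), and so did *Csf1r* (6.51 to 8.11) of *Cd68* and *Adgre1* (1.08 to 2.02) of *Aif1* (2.15 to 4.52). The other neighbours in this order overlapped, among them *Trem2*, at 2.91 to 10.5 FPM per kb, with both *Csf1r* and *Cx3cr1*.

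The comparison of 12w-res with 12w+dox asks how these genes differ when dox is withdrawn for the last 6 of the same 12 weeks. Of the 10 members, 9 rose in 12w-res at an adjusted p under 0.05, where 19.4% of the 15315 genes tested rose. Their fitted log2 fold changes lay between 0.50 and 0.93, and the median of all 10 was 0.73 beside a median of -0.0040 over all genes. With the further demand of an absolute log2 fold change over 1, 0 of the 10 were called by limma, where 6.24% of genes were called higher. edgeR and DESeq2 on recovered reads each called 1, *Trem2* (1.20 in DESeq2), and 9 members had an unadjusted p under 0.05 in limma (24.3% of genes). In 6 of the 10, every 12w-res mouse was above every 12w+dox mouse, which held for 17.1% of genes. Without 12w+dox replicate 4, 5 of the 10 passed, and without 12w+dox replicate 1, 3 were called (*Csf1r*, *Cx3cr1* and *Ptprc*).

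*Csf1r* encodes the growth factor receptor on which most tissue macrophages depend. It was at 15.8, 14.1 and 15.1 FPM in 6w+dox, at 23.4, 14.3, 7.92 and 16.9 FPM in 12w+dox and at 29.5, 27.2, 31.4, 26.9 and 25.2 FPM in 12w-res. All 5 12w-res mice were above the other 7, while the 12w+dox mice spread on both sides of 6w+dox. *Csf1r* rose in 12w-res by 0.91 ± 0.22 (SE, adjusted p = 0.00518) on the log2 scale against 12w+dox and by 0.88 ± 0.24 (SE, adjusted p = 0.0122) against 6w+dox. *Cx3cr1*, the receptor of CX3CL1 on monocytes and microglia, was at 11.7, 12.1 and 7.78 FPM in 6w+dox, 11.4, 5.48, 5.42 and 7.29 FPM in 12w+dox and 18.1, 13.7, 14.4, 14.1 and 10.6 FPM in 12w-res. The lowest 12w-res mouse lay inside the range of both dox groups, and the other 4 lay above all dox mice. *Cx3cr1* rose against 12w+dox by 0.93 ± 0.22 (SE, adjusted p = 0.00478), while its difference from 6w+dox, 0.42 ± 0.24 (SE, adjusted p = 0.203), did not pass.

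Among the 4 marker genes, *Cd68* encodes a lysosomal protein of phagocytes, *Adgre1* the F4/80 antigen, *Aif1* the actin-binding protein IBA1 and *Ptprc* the pan-leukocyte phosphatase CD45. *Cd68* was at 6.70, 11.001 and 5.46 FPM in 6w+dox, 9.87, 9.76, 7.95 and 6.34 FPM in 12w+dox and 12.999, 10.1, 20.3, 17.1 and 13.9 FPM in 12w-res. *Adgre1* was at 1.34, 1.83 and 2.24 FPM in 6w+dox, 4.64, 3.50, 2.40 and 3.27 FPM in 12w+dox and 3.48, 6.34, 6.55, 5.85 and 5.14 FPM in 12w-res. For *Cd68* all 12w-res mice were above all 12w+dox mice and 1 6w+dox mouse reached into their range, while for *Adgre1* all 12w-res mice were above all 6w+dox mice and 2 12w+dox mice reached into their range. *Cd68* rose by 0.76 ± 0.23 (SE, adjusted p = 0.0175) against 12w+dox and by 0.92 ± 0.25 (SE, adjusted p = 0.0111) against 6w+dox, and *Adgre1* rose by 0.60 ± 0.22 (SE, adjusted p = 0.0470) and 1.37 ± 0.24 (SE, adjusted p = 7.28e-04).

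*Ptprc* was at 3.14, 3.61 and 4.35 FPM in 6w+dox, 5.48, 3.61, 2.40 and 4.55 FPM in 12w+dox and 5.04, 9.25, 10.7, 7.56 and 6.35 FPM in 12w-res. In 12w-res, 4 of 5 mice were above all 7 dox mice, and the lowest, replicate 1, lay below 1 12w+dox mouse. It rose by 0.88 ± 0.24 (SE, adjusted p = 0.0111) against 12w+dox and by 0.95 ± 0.27 (SE, adjusted p = 0.0138) against 6w+dox. *Aif1* was at 5.59, 3.74 and 1.28 FPM in 6w+dox, 2.48, 1.84, 2.03 and 1.54 FPM in 12w+dox and 3.95, 3.38, 3.73, 2.60 and 1.88 FPM in 12w-res. The 6w+dox mice alone spanned the whole range of the other groups, and *Aif1* was the member that passed in no long-term comparison (0.52 ± 0.31 SE, adjusted p = 0.197 against 12w+dox and -0.03 ± 0.34 SE, adjusted p = 0.960 against 6w+dox).

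The C1q genes encode the A, B and C chains of the C1q recognition molecule. *C1qa* was at 37.0, 41.6 and 27.3 FPM in 6w+dox, 30.2, 22.7, 27.3 and 22.7 FPM in 12w+dox and 42.4, 36.0, 50.2, 44.8 and 36.6 FPM in 12w-res. *C1qb* was at 30.6, 36.3 and 22.9 FPM in 6w+dox, 33.1, 34.4, 33.4 and 25.6 FPM in 12w+dox and 41.8, 37.1, 59.8, 46.1 and 40.9 FPM in 12w-res. *C1qc* was at 28.9, 29.8 and 19.0 FPM in 6w+dox, 24.0, 20.1, 19.8 and 20.5 FPM in 12w+dox and 36.8, 25.043, 43.1, 36.6 and 31.9 FPM in 12w-res. In all 3 genes every 12w-res mouse was above every 12w+dox mouse, with replicate 3 highest, and against 6w+dox only *C1qb* was separate. The rise against 12w+dox was 0.70 ± 0.15 (SE, adjusted p = 0.00215) for *C1qa*, 0.50 ± 0.16 (SE, adjusted p = 0.0244) for *C1qb* and 0.69 ± 0.16 (SE, adjusted p = 0.00493) for *C1qc*. Against 6w+dox *C1qb* rose by 0.59 ± 0.17 (SE, adjusted p = 0.0177), and *C1qa* (0.26 ± 0.16 SE, adjusted p = 0.230) and *C1qc* (0.42 ± 0.18 SE, adjusted p = 0.0859) did not pass.

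*Trem2*, the lipid-sensing receptor, was at 2.10, 2.76 and 2.15 FPM in 6w+dox, 3.00, 2.59, 2.99 and 1.90 FPM in 12w+dox and 3.43, 3.17, 11.4, 7.73 and 4.25 FPM in 12w-res. All 5 12w-res mice were above the 7 dox mice, but replicates 3 and 4, both female, stood apart from the other 3, which were between 3.17 and 4.25 FPM. *Trem2* rose by 0.92 ± 0.31 (SE, adjusted p = 0.0310) against 12w+dox and by 1.05 ± 0.34 (SE, adjusted p = 0.0276) against 6w+dox. Without 12w-res replicate 3 the change against 6w+dox was 0.79 (adjusted p = 0.0470), and without replicate 4 it was 0.92 (adjusted p = 0.0649), so that the call over a log2 fold change of 1 was lost.

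**Figure D1:**
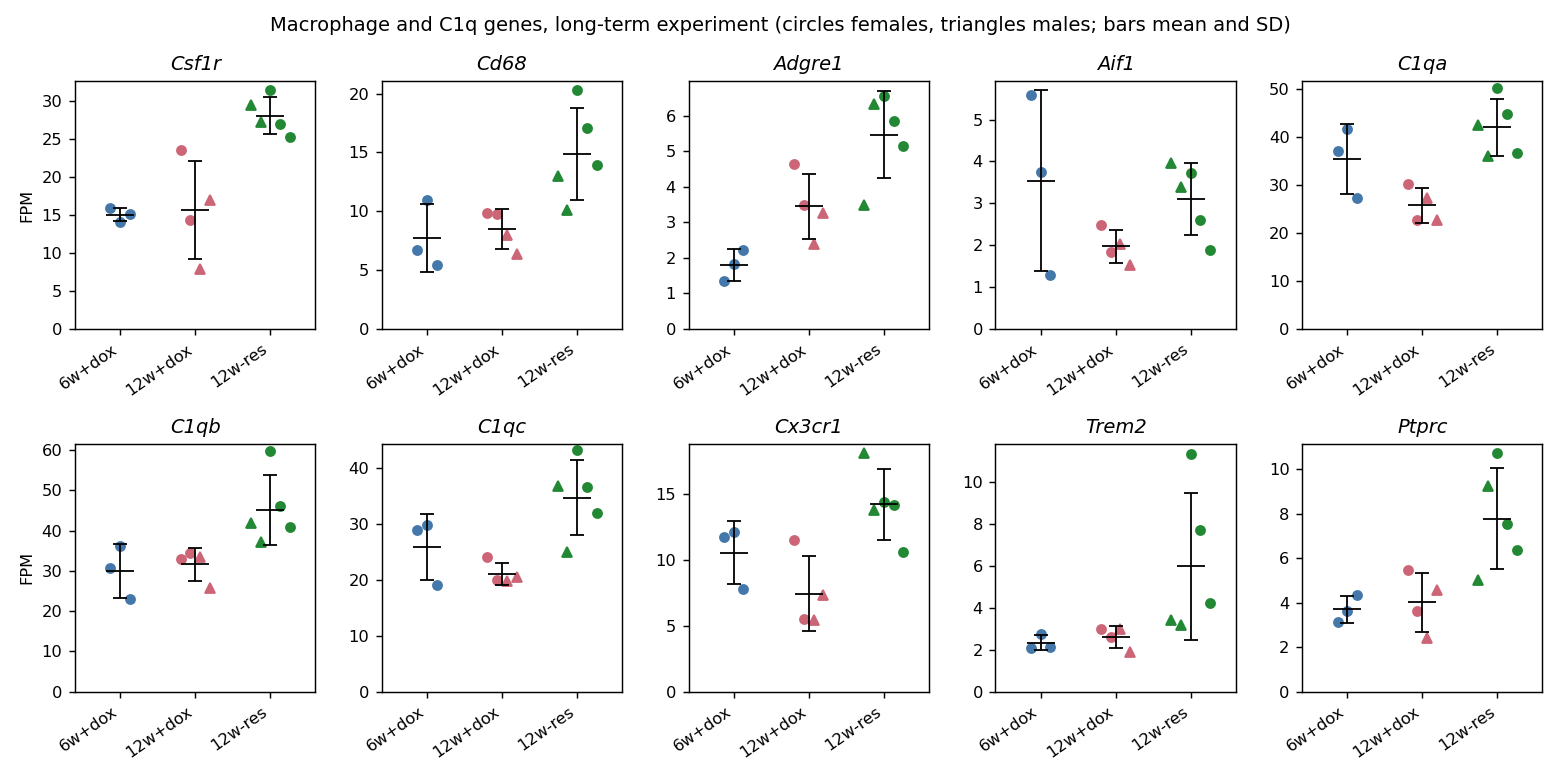
Level of each member in the 12 long-term mice, in FPM on a linear axis that starts at 0. Each point is 1 mouse (circles females, triangles males) and the bars give the mean and SD. The 12w-res mice lie above all 12w+dox mice for *Csf1r*, *Cd68*, *C1qa*, *C1qb*, *C1qc* and *Trem2*, and the 6w+dox mice spread most for *Aif1*.

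The 6w+dox mice had had as much dox as 12w-res before its removal. Against them, 6 of the 10 members rose in 12w-res at an adjusted p under 0.05 (17% of genes did) and 2, *Adgre1* and *Trem2*, were called with a log2 fold change over 1 (5.81% of genes). The median of the 10 was 0.73 and that of all genes -0.021. Every 12w-res mouse was above every 6w+dox mouse in 5 members (*Csf1r*, *Adgre1*, *C1qb*, *Trem2* and *Ptprc*), as in 16.9% of genes. Both comparisons use the same 12w-res mice, so their counts are not separate evidence.

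From 6w+dox to 12w+dox, with dox throughout, 1 of the 10 members rose at an adjusted p under 0.05 (10.4% of genes rose) and 0 fell (12% fell), and limma called 0 with an absolute log2 fold change over 1 (3.15% of genes were called higher and 4.04% lower). This member was *Adgre1* (0.77 ± 0.25 SE, adjusted p = 0.0418), in which all 4 12w+dox mice were above all 3 6w+dox mice, as in 12.9% of genes. In addition 1 member, *C1qa* (-0.44 ± 0.17 SE, adjusted p = 0.0726), had an unadjusted p under 0.05 (19.3% of genes were lower at this p). DESeq2 on recovered reads gave 2 members and edgeR 1. *Cx3cr1* (-0.52), *Aif1* (-0.55) and *C1qc* (-0.27) had fitted changes below 0 that did not pass, and *C1qb* (0.09), *Cd68* (0.16), *Trem2* (0.13), *Ptprc* (0.06) and *Csf1r* (-0.04) lay between -0.04 and 0.16. The median of the 10 was 0.014 beside -0.0063 for all genes. *Adgre1* no longer passed when only the 2 groups were fitted or when any 1 of 8 mice was left out (12w+dox replicates 1, 2 and 4, 12w-res replicates 2, 4 and 5, 6w+dox replicates 1 and 2), and 3 members passed without 6w+dox replicate 3.

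**Figure D2:**
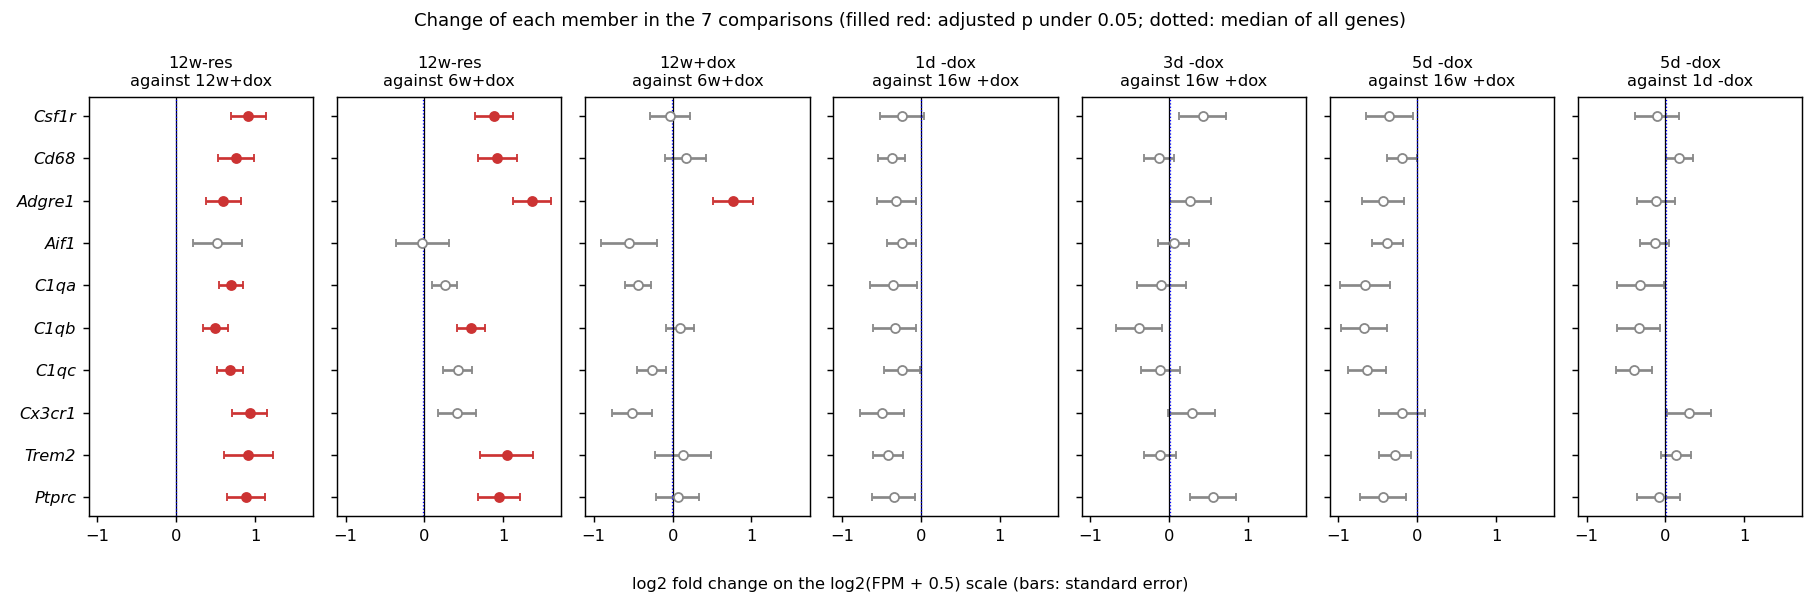
Fitted log2 fold change of each member in the 7 comparisons, on the log2(FPM + 0.5) scale, with the standard error as bars. Filled red points had an adjusted p under 0.05: 9 for 12w-res against 12w+dox, 6 for 12w-res against 6w+dox, 1 for 12w+dox against 6w+dox and 0 in the short-term comparisons. The dotted line is the median of all genes tested.

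The size of the rise in 12w-res depends on how libraries are scaled. Counted per 1e6 reads on genes, the members together took 122 to 157 reads in 6w+dox, 140 to 186 in 12w+dox and 146 to 209 in 12w-res, ranges that overlap. With libraries scaled to these totals, the median of all genes shifted to -0.61 for 12w-res against 12w+dox, the members' median was 0.089 and limma passed 0 of the 10, with *Aif1* (-0.019) and *C1qb* (-0.15) below 0. Over all genes the calls moved from 955 higher and 772 lower to 244 higher and 3364 lower. Relative to the shifted median all 10 stayed above the median gene, by 0.45 to 0.95, with a median of 0.69. Against 6w+dox the same scaling moved the median of all genes to -0.33 (497 called higher and 1638 lower, from 890 and 892) and that of the members to 0.41, with 1 member past, *Adgre1*. The reads of *Pomc*, given above, moved with this scaling difference, and their part in it was not tested.

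Fitted changes between 12w-res and 12w+dox were above 0 in both sexes for all 10 members. In female mice alone, the median of the members for 12w-res against 12w+dox was 0.69, with 2 of the 10 past, *C1qc* (0.74, adjusted p = 0.0493) and *Trem2* (1.24, adjusted p = 0.0450), in a fit with 3 and 2 mice. The fitted changes were 0.26 to 1.24 in females and 0.39 to 1.26 in males. The widest gap was in *Trem2*, at 1.24 in females and 0.39 in males, and an interaction of sex and group passed for 0 of the 10 members in limma (smallest unadjusted p = 0.136, adjusted p = 0.999). With sex as a covariate 8 members passed. The 6w+dox mice were all female.

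Other genes of macrophages were mostly higher too. Of 22 other macrophage and microglia genes, 11 rose and 1 fell in 12w-res against 12w+dox (median 0.72). *Lyz2*, which encodes lysozyme, rose by 1.60 ± 0.22 (SE, adjusted p = 9.04e-05), *Fcer1g*, the Fc receptor gamma chain, by 1.24, and the mannose receptor gene *Mrc1* by 1.22. The gene that fell was *Cd163*, the hemoglobin scavenger receptor, at -1.35 ± 0.18 (SE, adjusted p = 7.41e-05), from a mean of 8.05 to 2.87 FPM. Against 6w+dox 12 rose and 1 fell, with *Lyz2* at 3.94, the scavenger receptor gene *Msr1* at 2.09, *Laptm5* at 1.81 and *Mpeg1* at 1.61. From 6w+dox to 12w+dox 5 of the 22 already rose, among them *Lyz2* by 2.34 and *Msr1* by 1.28, while 1 of the 10 members did. With libraries scaled to totals, 2 of the 22 rose and 4 fell in 12w-res against 12w+dox, and the median was 0.17 where that of all genes was -0.61.

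Of the 17 listed genes of TREM2 signalling and lipid-associated macrophages, 10 rose and 0 fell in 12w-res against 12w+dox (median 0.85). *Tyrobp*, which carries the TREM2 signal, rose by 0.92 ± 0.19 (SE, adjusted p = 0.00197) against 12w+dox and by 0.80 against 6w+dox, and it was at -0.12 (adjusted p = 0.726) between the dox groups. *Spp1*, which encodes osteopontin, rose by 2.40 ± 0.36 (SE, adjusted p = 1.82e-04), the receptor kinase gene *Axl* by 1.15, the galectin gene *Lgals3* by 1.13 and the tetraspanin gene *Cd9* by 1.02. Against 6w+dox 10 also rose, led by *Gpnmb* (3.83), *Itgax* (1.76), *Clec7a* (1.54) and *Spp1* (1.44). From 6w+dox to 12w+dox *Gpnmb* (2.94), *Syk* (1.16) and *Clec7a* (1.08) rose and 2 of the 17, *Apoe* and *Cd63*, fell. Several genes of this list, such as *Apoe*, *Ctsb*, *Ctsd* and *Cd63*, are expressed by many cell types. With libraries scaled to totals 3 of the 17 rose and 2 fell against 12w+dox, and *Ctsb* (-0.11) and *Ctsd* (-0.13) were below 0.

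The list of CSF1R ligands, cytokine receptors and myeloid transcription factors held genes that moved in both directions. *Csf1* rose from a mean of 9.78 to 14.8 FPM (0.63 ± 0.19 SE, adjusted p = 0.0177) and *Il34* from a mean of 2.58 to 5.16 FPM (0.87 ± 0.19 SE, adjusted p = 0.00323) in 12w-res against 12w+dox. Against 6w+dox *Il34* rose by 1.26 and *Csf1* was at 0.05, which did not pass. Of the 12 genes of this list 7 rose against 12w+dox, with the transcription factor genes *Runx1* (1.32) and *Spi1* (1.19) and the cytokine receptor gene *Csf2rb* (1.01) highest, and 1 fell, the myeloid transcription factor gene *Irf8* (-1.13, from a mean of 24.7 to 10.7 FPM). *Irf8* and *Csf2rb* were the 2 that rose from 6w+dox to 12w+dox, by 1.01 and 1.08, and 5 rose in 12w-res against 6w+dox, led by *Csf2rb* at 2.08. *Tfec*, at 0 in all 6w+dox mice, was among these 5. With libraries scaled to totals limma passed 0 of the 12 as higher and 1 as lower against 12w+dox, with a median of 0.17.

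Of the 20 listed complement components and regulators, 11 rose and 1 fell in 12w-res against 12w+dox (median 0.69). *C3*, the central component of all complement pathways, rose from a mean of 41.0 to 148 FPM (2.09 ± 0.40 SE, adjusted p = 0.00119), and *C1s1*, a protease that C1q engages, rose by 1.19 ± 0.23 (SE, adjusted p = 0.00123). *C1ra*, its partner protease, was at 0.25 and *C4b* at 0.24, neither past the test, while *C2*, which supplies the protease of the classical *C3* convertase, fell, at -0.83 ± 0.21 (SE, adjusted p = 0.00721). The regulators *Cd59a* and *Clu* rose by 1.61 and 1.57. Against 6w+dox 10 rose and 0 fell, with *C3* at 3.83, *Itgb2* at 1.64 and *C5ar1* at 1.42. *C1s1* was at 0.82 and passed, and *C1ra* (-0.44), *C4b* (0.38) and *C2* (-0.50) did not. From 6w+dox to 12w+dox *C3* rose by 1.74, the mitochondrial protein gene *C1qbp* and *Cd59a* fell, and *C1ra* (-0.69), *C1s1* (-0.37), *C2* (0.33) and *C4b* (0.15) did not pass. The summed level of the 20 was 743 to 1178 FPM in 12w+dox and 2163 to 2897 FPM in 12w-res, where *Clu* alone averaged 1999 FPM. With libraries scaled to totals 6 rose and 4 fell against 12w+dox, with a median of 0.067.

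Markers of other cell types moved in the same comparison. All 6 endothelial markers and all 6 fibroblast markers rose in 12w-res against 12w+dox, with medians of 1.45 and 1.76, above the 0.73 of the members. The strongest were *Cldn5* (1.59), *Cdh5* (1.56), *Emcn* (1.48) and *Pecam1* (1.42) for endothelium, and *Col1a1* (2.64), *Col1a2* (2.14), *Lum* (1.81) and *Col3a1* (1.71) for fibroblasts. With libraries scaled to totals, 4 of the 6 endothelial and 5 of the 6 fibroblast markers rose, with medians of 0.82 and 1.13. Of the 10 members 0 passed by that scaling, with a median of 0.089. The endothelial sum was 69.2 to 93.2 FPM in 6w+dox, 33.0 to 68.2 FPM in 12w+dox and 120 to 137 FPM in 12w-res, and the fibroblast sum 273 to 296, 80.3 to 308 and 495 to 1152 FPM. The summed level of the members was 108 to 157, 111 to 148 and 171 to 252 FPM. Divided by the endothelial sum, a ratio that no library scaling touches, it was 1.15 to 2.07 in 6w+dox, 1.66 to 3.43 in 12w+dox and 1.38 to 1.99 in 12w-res. Divided by the fibroblast sum, it was 0.370 to 0.574 in 6w+dox, 0.371 to 1.39 in 12w+dox and 0.153 to 0.346 in 12w-res. By this ratio all 12w-res mice were below all 6w+dox and 12w+dox mice. The part of endothelium and fibroblasts in the members' rise was not tested.

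Few markers of other white blood cells were listed, and the deposited values leave out genes with few reads. Of 14 T and B lymphocyte markers 7 were listed, without the defining genes Cd3e, Cd3d and Ms4a1 among others, and in 12w-res against 12w+dox 0 passed in limma, with 1 at an unadjusted p under 0.05, 1 past in edgeR and in DESeq2, and a median of 0.12. Their sum was 6.12 to 7.85 FPM in 12w+dox and 5.69 to 13.3 FPM in 12w-res. Of 9 neutrophil markers 4 were listed and 1, *S100a8*, fell, and the sum was 2.002 to 6.18 and 2.03 to 4.28 FPM. Natural killer cells had 1 of 8 markers listed, mast cells and basophils 1 of 6, dendritic cells 3 of 7 and red blood cells 1 of 5. Of these 6 genes 0 passed in limma, 0 had an unadjusted p under 0.05, and edgeR passed 1 and DESeq2 0. Of 5 melanotroph and corticotroph markers 2, *Pcsk1* and *Pcsk2*, rose and 1, *Pax7*, fell, of 6 markers of other hormone cells 2, *Prl* and *Gh*, rose, and of 3 neural lobe markers 1, *Gfap*, rose. Against 6w+dox, 3 endothelial and 2 fibroblast markers rose, and the neural lobe genes *Avp* and *Oxt*, the lymphocyte gene *Cd3g*, the killer cell gene *Nkg7* and the hormone genes *Tshb* and *Gh* fell. Of the melanotroph and corticotroph markers, *Pcsk1*, *Pcsk2* and *Pax7* rose and *Tbx19* fell against 6w+dox.

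**Figure D3:**
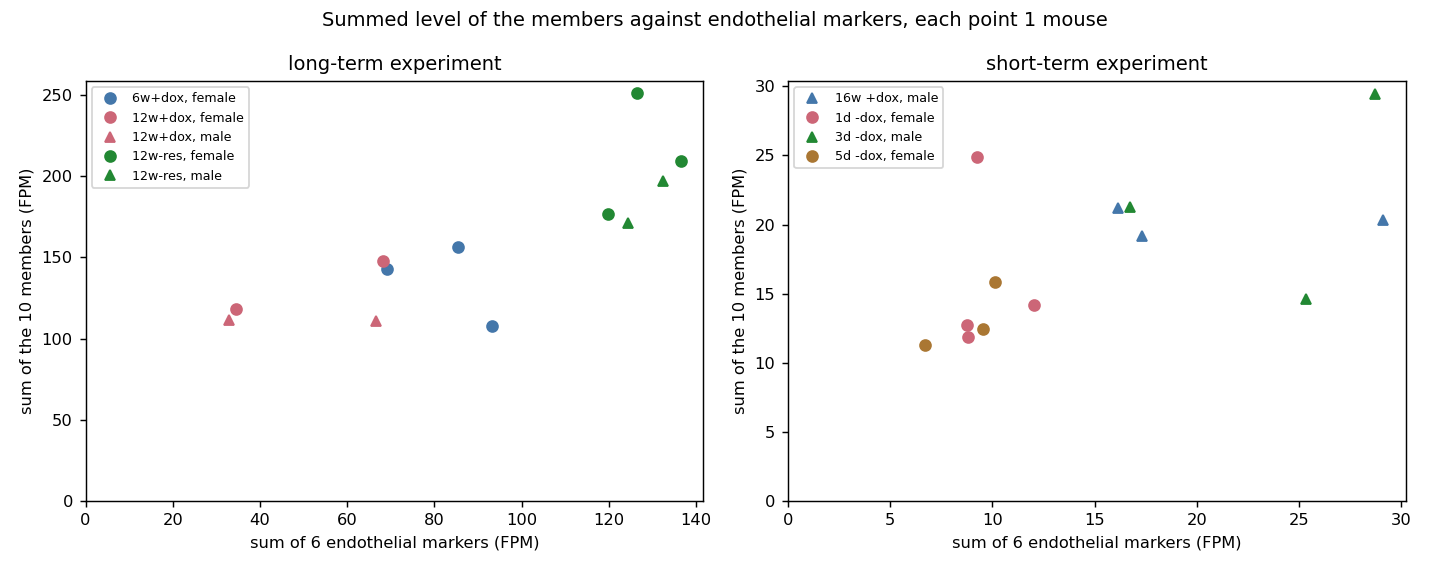
Summed level of the 10 members against the summed level of 6 endothelial markers, each point 1 mouse (circles females, triangles males), in FPM on linear axes that start at 0. In the long-term experiment the 12w-res mice are highest on both axes, with 171 to 252 FPM for the members and 120 to 137 FPM for endothelium. In the short-term experiment the female 1d -dox and 5d -dox mice lie at 6.70 to 12.0 FPM of endothelial markers. The male 16w +dox and 3d -dox mice lie at 16.1 to 29.1 FPM. Within 12w+dox and within 12w-res, the endothelial sums of females and males overlap.

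In the days after dox removal, 0 of the 10 members passed at an adjusted p under 0.05 in limma in any of the 4 comparisons, and edgeR and DESeq2 also passed 0. Few genes passed at all: 0.043% of the 13958 tested rose and 0.0573% fell in 1d -dox, 0.158% and 0.201% in 3d -dox, 0.337% and 0.172% in 5d -dox (each against 16w +dox), and 0.00716% each way for 5d -dox against 1d -dox. At an unadjusted p under 0.05, 1 member was lower in 1d -dox (*Trem2*, beside 6.28% of genes), 2 were lower in 5d -dox (*C1qb* and *C1qc*, beside 6.33%), and 0 passed in 3d -dox or for 5d -dox against 1d -dox. Female 1d -dox and 5d -dox mice were compared with male 16w +dox mice, so sex and time off dox cannot be told apart there. The comparisons within 1 sex are 3d -dox against 16w +dox and 5d -dox against 1d -dox.

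*C1qa* was at 4.37, 3.93 and 3.01 FPM in 16w +dox, 5.28, 2.29, 2.19 and 2.32 FPM in 1d -dox, 4.95, 4.24 and 1.89 FPM in 3d -dox and 1.99, 2.70 and 1.89 FPM in 5d -dox. *C1qb* was at 4.04, 2.67 and 3.37 FPM in 16w +dox, 4.18, 2.29, 2.32 and 1.80 FPM in 1d -dox, 3.91, 2.63 and 1.34 FPM in 3d -dox and 1.74, 2.08 and 1.89 FPM in 5d -dox. *C1qc* was at 4.22, 3.93 and 3.70 FPM in 16w +dox, 5.49, 3.18, 2.44 and 2.57 FPM in 1d -dox, 4.87, 3.53 and 2.74 FPM in 3d -dox and 2.13, 2.93 and 2.08 FPM in 5d -dox. In each of the 3 genes the 5d -dox mice were below all 16w +dox mice, replicate 1 of 1d -dox was above all 16w +dox mice, and the 3d -dox mice overlapped with every group. *Ptprc* and *Cd68* were likewise below in 5d -dox, which makes 5 of the 10 members, where 9.64% of genes were below. The fitted changes in 5d -dox against 16w +dox were -0.67 ± 0.29 (SE, adjusted p = 0.327) for *C1qb*, -0.66 ± 0.31 (SE, adjusted p = 0.373) for *C1qa* and -0.64 ± 0.24 (SE, adjusted p = 0.277) for *C1qc*. Against the female 1d -dox mice they were -0.34, -0.32 and -0.39, with overlapping groups.

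*Csf1r* was at 2.12, 3.23 and 2.27 FPM in 16w +dox, 3.63, 1.28, 2.42 and 1.43 FPM in 1d -dox, 5.26, 3.41 and 2.43 FPM in 3d -dox and 1.74, 2.21 and 1.63 FPM in 5d -dox. *Ptprc* was at 1.57, 1.26 and 1.56 FPM in 16w +dox, 1.88, 0.428, 1.45 and 0.819 FPM in 1d -dox, 3.19, 1.75 and 2.35 FPM in 3d -dox and 1.04, 1.19 and 0.675 FPM in 5d -dox. For *Ptprc* all 3 3d -dox males were above all 3 16w +dox males, as for 10.6% of genes, at 0.55 ± 0.29 (SE, adjusted p = 0.353), and *Csf1r* overlapped, at 0.43 ± 0.30 (SE, adjusted p = 0.498). *Trem2* rested on few reads, 14, 7 and 19 in 16w +dox, 2, 1, 8 and 10 in 1d -dox, 10, 25 and 6 in 3d -dox and 7, 8 and 5 in 5d -dox, and *Aif1* on 1 to 25 reads per mouse. Neither gene passed at an adjusted p under 0.05 in any short-term comparison.

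The other members were at 2.42 to 2.72, 1.47 to 2.57, 1.65 to 2.78 and 2.05 to 2.31 FPM (*Cd68*), 0.536 to 1.10, 0.275 to 0.877, 0.782 to 1.65 and 0.281 to 0.675 FPM (*Adgre1*), and 0.799 to 1.53, 0.244 to 1.26, 0.968 to 2.11 and 0.619 to 1.25 FPM (*Cx3cr1*) in 16w +dox, 1d -dox, 3d -dox and 5d -dox. The median fitted change of the 10 was -0.34 in 1d -dox, -0.019 in 3d -dox and -0.41 in 5d -dox against 16w +dox, which is shared by all 3 comparisons, and -0.12 for 5d -dox against 1d -dox. The medians of all genes lay between -0.0018 and 0.0092. All 10 members had a fitted change below 0 in 1d -dox and in 5d -dox (50.5% and 50.2% of genes), 5 of 10 in 3d -dox (48.1%) and 7 of 10 for 5d -dox against 1d -dox (49.8%). Endothelial markers differed along the same line. Their sum was 16.1 to 29.1 FPM in the 6 males and 6.70 to 12.0 FPM in the 7 females. The sums of fibroblast and other hormone cell markers were also lower in 1d -dox and 5d -dox than in 16w +dox. For fibroblasts they were 69.0 to 79.8, 25.5 to 44.1, 44.8 to 107 and 25.3 to 51.9 FPM in 16w +dox, 1d -dox, 3d -dox and 5d -dox. For other hormone cells they were 197 to 233, 22.9 to 105, 166 to 873 and 25.4 to 101 FPM. The part of these markers in the members' values was not tested.

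The ligands and partners of the members were followed over the same days. At 1d -dox, 3d -dox and 5d -dox against 16w +dox, *Csf1* was at 0.06, -0.13 and 0.04, *Il34* at -0.57, -0.36 and -0.67, and *Cx3cl1* at 0.25, 0.45 and 0.10 on the log2 scale. *Tyrobp* was at -0.32, 0.33 and -0.56. *C3* was at -0.05, 0.68 and 0.13, *C2* at 0.84, 0.73 and 0.52, *C4b* at -0.34, -0.13 and -0.78, *C1ra* at -0.29, 0.44 and -0.61, and *C1s1* at -0.13, 0.24 and -0.37. Over all lists, limma passed 3 genes against 16w +dox: *Axl* fell in 5d -dox (-1.09 ± 0.22 SE, adjusted p = 0.0494), the endothelial cadherin gene *Cdh5* fell in 1d -dox and 5d -dox (-1.10 and -1.22), and the gonadotroph hormone gene *Lhb* fell at both (-2.57 and -2.65) and rose in 3d -dox (1.91).

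**Figure D4:**
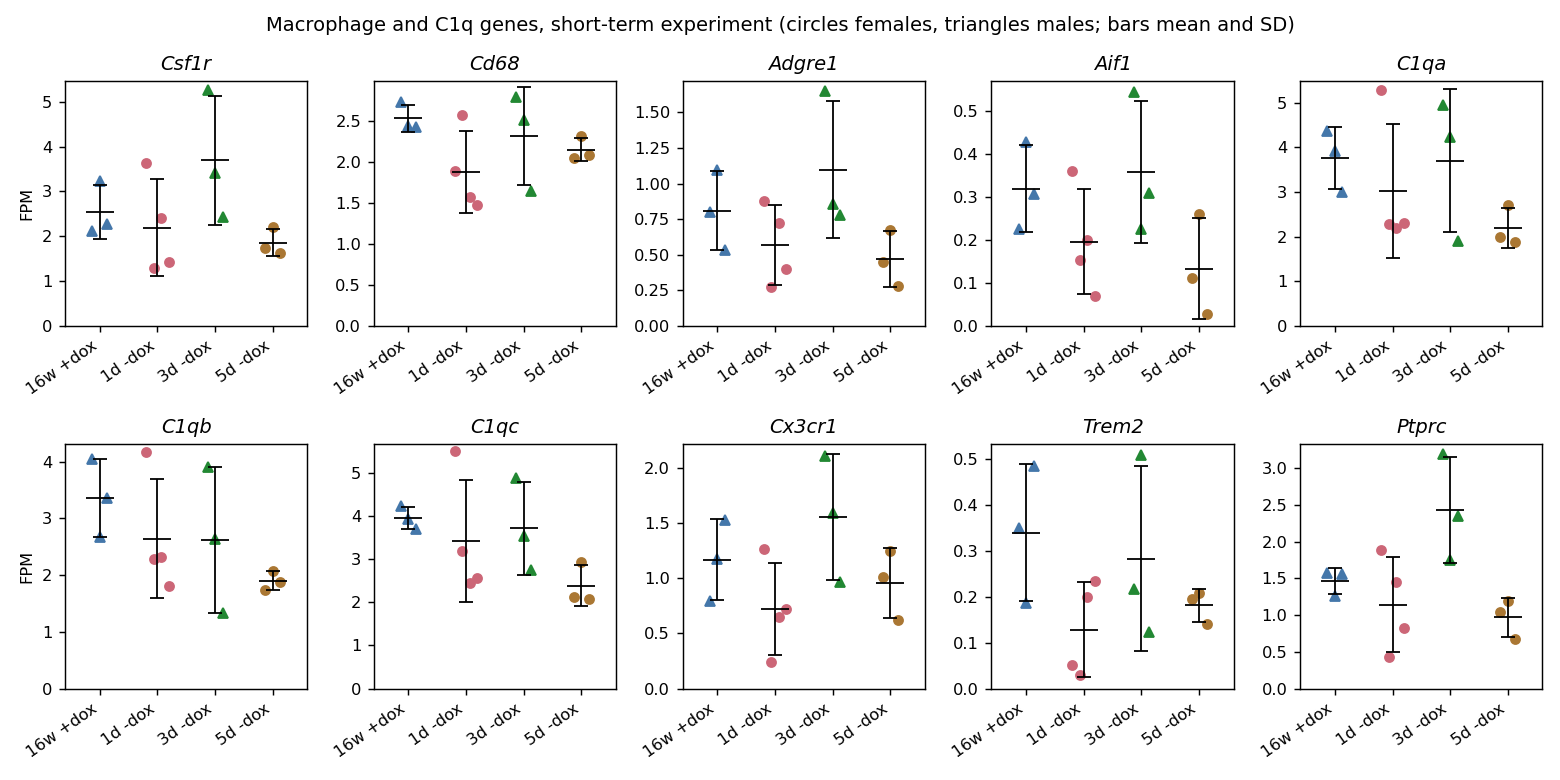
Level of each member in the 13 short-term mice, in FPM on a linear axis that starts at 0. Each point is 1 mouse (circles females, triangles males) and the bars give the mean and SD. All 5d -dox mice lie below all 16w +dox mice for *C1qa*, *C1qb*, *C1qc*, *Cd68* and *Ptprc*, 3d -dox replicate 1 is the highest of the 13 in 6 panels and 1d -dox replicate 1 in 3.

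Within each experiment the members varied together from mouse to mouse. Over the 12 long-term mice, 44 of the 45 pairs of members had a positive Pearson correlation of log2(FPM + 0.5), with a median r of 0.67, and over the 13 short-term mice all 45 did, with a median of 0.57. The points share their group and their library scaling, so these values describe the mice and are not tests. *Aif1* followed the others least in the long-term mice (median r = 0.35) and *Trem2* and *Cd68* least in the short-term mice (0.25 and 0.30). The 12w-res replicate 3 was the highest of 12 mice in 8 members and 3d -dox replicate 1 the highest of 13 in 6. 6w+dox replicate 3 was the lowest of 12 in 4 members and 1d -dox replicate 2 the lowest of 13 in 5.

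**Figure D5:**
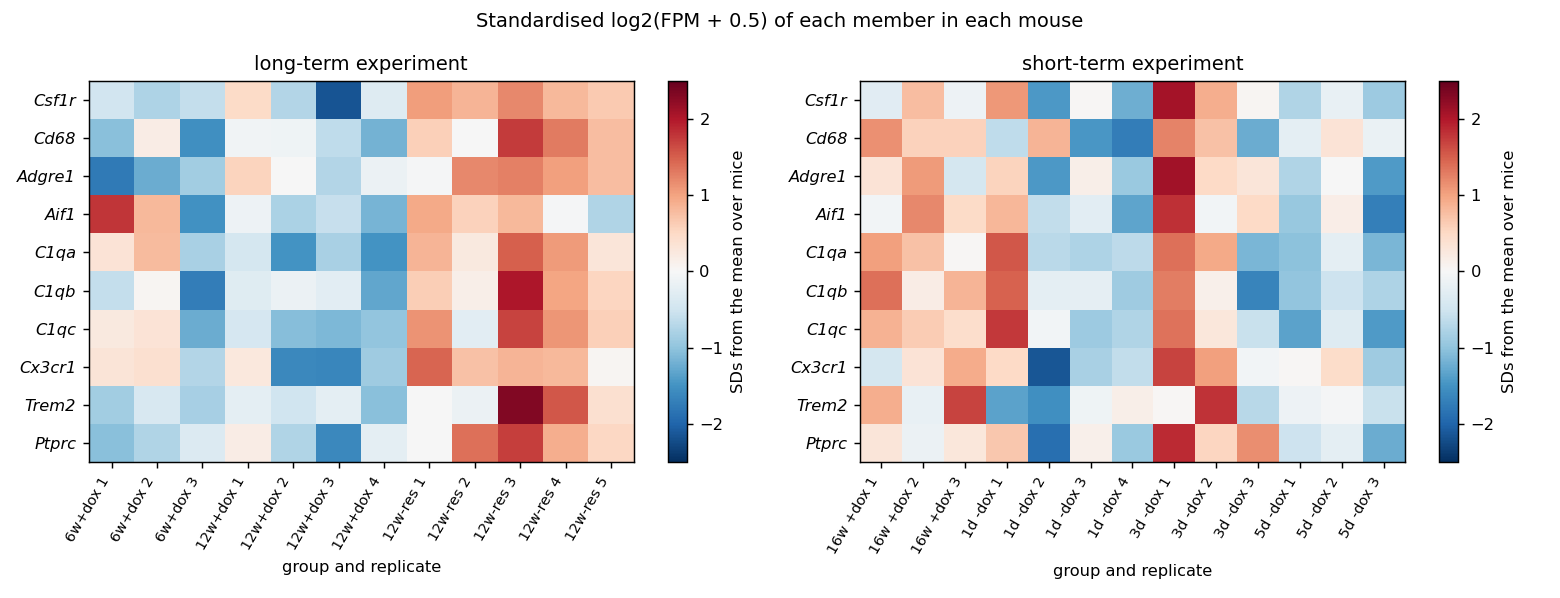
Each member's log2(FPM + 0.5) in each mouse, in SDs from its mean over the mice of that experiment (red above, blue below). The 5 12w-res mice are mostly red, with replicate 3 the highest in 8 of 10 members, and in the short-term experiment 3d -dox replicate 1 is the highest in 6.

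Ratios of members within a mouse do not depend on library scaling. The ratio of *C1qb* to *C1qa* was 0.827 to 0.872 in 6w+dox, 1.10 to 1.51 in 12w+dox and 0.987 to 1.19 in 12w-res, so that the 6w+dox mice were below all others. The ratio of *Adgre1* to *C1qa* was 0.0362 to 0.0819 in 6w+dox, 0.0880 to 0.154 in 12w+dox and 0.0822 to 0.176 in 12w-res. It was again lowest in 6w+dox, but the groups nearly met, and *Adgre1* had only 23 to 54 reads in 6w+dox. The ratio of *C1qc* to *C1qa*, 0.698 to 0.780 in 6w+dox, overlapped with 12w+dox (0.725 to 0.902) and 12w-res (0.695 to 0.872). *C1qa* to *Csf1r* was 1.81 to 2.96 in 6w+dox, 1.29 to 3.45 in 12w+dox and 1.33 to 1.66 in 12w-res. These ratios were looked at after the levels and were not tested.

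Of the 13544 non-member genes in both tables that varied, the 10 most like the members by the smaller of their correlations with the members' mean standardised level included *Cxcl16* (r = 0.874 over 12 long-term and 0.885 over 13 short-term mice), *Axl* (0.925 and 0.869), *Ctss* (0.989 and 0.852) and *Icam1* (0.932 and 0.846). *Nckap1l*, *Pld4*, *Hcls1*, *Inpp5d* and *Mpeg1* were also among them, down to a smaller r of 0.825. The points share groups and scaling here too. Of these 10, 5 stood on the lists of macrophage genes used here, among them *Axl*, *Ctss*, *Inpp5d* and *Mpeg1*.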

How the data were processed

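RNA of 25 mouse pituitaries was sequenced on a NovaSeq6000, paired-end. Mapping by the authors used STAR with its defaults on mm10 and RefSeq genes. The deposited values are a signal, namely FPM scaled by DESeq2 size factors, in 1 table per experiment that leaves out genes with few reads. The tool that counted reads, and whether it used strand, is not given in the sources used here. All values of both tables (183780 and 182091) were whole multiples of 1 read within 0.1 of a read, so that reads were recovered. Lines without a gene name (2 and 4) stayed out of depths and tests, and 0 per-sample columns were left unused.

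Groups and sex came from the sample labels. The main test was limma 3.58.1 (R 4.3.3) with a trended prior variance on log2(FPM + 0.5), in 1 fit per experiment, over genes that reached 10 recovered reads in over 50% of the mice of any group, with Benjamini-Hochberg adjustment over all genes tested. A gene rose or fell at an adjusted p under 0.05, and was called where the absolute log2 fold change was also over 1. On this scale, changes of low genes come out smaller than they are. Alternatives were edgeR 4.0.16 and DESeq2 1.42.0 on recovered reads, pseudocounts of 0.1 and 1, TMM scaling, scaling to totals of recovered reads, no filter, at least 10 reads in every sample, a block for the replicate number, sex as a covariate, a fit of only the groups compared, a fit of female mice only, and leaving out each mouse. On simulated reads for 12w+dox against 6w+dox, with 200 of 14080 genes changed 4-fold, limma recovered 186, and for 1d -dox against 16w +dox, with 200 of 12556 changed 4-fold, 195. Depth limits the short-term values of *Trem2*, *Aif1* and *Adgre1* most. Replicates differed by more than counting error in every pair within a group. The labels number the samples of a group as replicates and give the sex of each, but do not say whether litters or extraction days were shared, so p-values measure the spread between these samples.

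The members and the lists were chosen with earlier results of these data known. The text names all members in every group, from each list at most 4 called genes of largest change per comparison, the partners *Csf1*, *Il34*, *Cx3cl1*, *Tyrobp*, *C1ra*, *C1s1*, *C2*, *C3* and *C4b*, and genes from the 10 of most similar pattern, while other genes were named after their values were seen. Levels per kilobase used the longest GENCODE vM21 transcript of a gene that is paired with a RefSeq transcript. Promoter sequences and gene positions came from RefSeq tables of GRCm38.p6, and a few items that these rules select are not reported here.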

Additional observations from a re-analysis of the deposited data

Results flagged for a closer look

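Of 30 sets of values (10 members in 3 groups of 4 or 5 mice), 3 held a mouse that stood apart from its group by a larger share of the range than 95% of sets drawn from 1 distribution would show, and chance gives about 1 such set in 20. *C1qa* in 1d -dox replicate 1 was at 5.28 FPM, beside 2.19 to 2.32 FPM in the other 3 mice. This mouse also led the 13 short-term mice in 3 members, while its endothelial sum (9.23 FPM) lay within the 8.73 to 12.0 FPM of its group. *C1qb* in 12w+dox replicate 4 was at 25.6 FPM, beside 33.1 to 34.4 FPM, and *C1qc* in 12w+dox replicate 1 was at 24.0 FPM, beside 19.8 to 20.5 FPM. Without 12w+dox replicate 4, 5 members rather than 9 passed at an adjusted p under 0.05 in 12w-res against 12w+dox. Without 1d -dox replicate 1 the median change of the members at 1d -dox against 16w +dox was -0.47 instead of -0.34, and 0 members passed.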

How the results depend on the processing

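Of 1622 fitted changes of single members under an alternative, 1551 kept their direction and stayed called or not called (adjusted p under 0.05 with an absolute log2 fold change over 1), 8 lost a call, 26 gained one and 37 changed sign, and 1 of the 37 belonged to a change that had passed an adjusted p of 0.05, that of *C1qb* in 12w-res against 12w+dox with libraries scaled to totals. For 12w-res against 12w+dox the number of members past an adjusted p of 0.05 was 9, and it was 0 with totals, 2 in females only and 5 with the replicate number as a block. The number called, 0 with a log2 fold change over 1, was 9 with no minimum fold change and 1 each with edgeR, DESeq2, a pseudocount of 0.1, the block and females only. For 12w-res against 6w+dox the number past was 6, and it was 1 with totals and 2 with the block, while the number called, 2, was 6 with no minimum fold change, 4 with sex as a covariate and in females only, and 1 with a pseudocount of 1, totals or the block. For 12w+dox against 6w+dox 1 member passed, 2 with DESeq2 and 0 with only the groups compared, with the block and in females only, and 1 rather than 0 was called with no minimum fold change and with totals.

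The medians of the members with totals were 0.089 for 12w-res against 12w+dox, 0.41 for 12w-res against 6w+dox and 0.32 for 12w+dox against 6w+dox, where the median of all genes was 0.29 and the calls over all genes moved from 483 higher and 619 lower to 1058 and 317. At 5d -dox against 16w +dox the median was -0.76 with edgeR, -0.75 with DESeq2 and -0.64 with a pseudocount of 0.1, beside -0.41. TMM scaling, no filter and at least 10 reads in every sample moved no count of members and no median beyond these limits. Signs changed for *Csf1r* in 12w+dox against 6w+dox, from -0.036 to 0.056 with edgeR, 0.061 with DESeq2, 0.28 with totals, 0.10 with sex as a covariate and 0.28 in females only, and for *C1qc* there, to 0.054 with totals. With totals *Aif1* (-0.019) and *C1qb* (-0.15) changed sign in 12w-res against 12w+dox, *C1qa* (-0.069) in 12w-res against 6w+dox, and *C1qa* (0.033) and *C1qc* (0.025) at 3d -dox, and with the block *Aif1* (0.21) in 12w-res against 6w+dox.

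Leaving out 1 mouse at a time gave medians of 0.64 to 0.81 for 12w-res against 12w+dox, 0.57 to 0.79 for 12w-res against 6w+dox, -0.17 to 0.07 for 12w+dox against 6w+dox, -0.47 to -0.25 at 1d -dox, -0.08 to 0.18 at 3d -dox and -0.53 to -0.28 at 5d -dox against 16w +dox, and -0.27 to 0.04 for 5d -dox against 1d -dox. Members past numbered 5 to 9, 4 to 7 and 0 to 3 in the long-term comparisons in the same order, and members called 0 to 3, 1 to 3 and 0 to 1, with 0 of both in the short-term ones. The lowest number past, 5, was without 12w+dox replicate 4, and the 3 called without 12w+dox replicate 1 were *Csf1r* (1.14), *Cx3cr1* (1.15) and *Ptprc* (1.04). Single members whose sign changed ranged as follows. In 12w+dox against 6w+dox these were *C1qb* (-0.084 to 0.24), *Cd68* (-0.039 to 0.44), *Csf1r* (-0.26 to 0.25) and *Ptprc* (-0.089 to 0.26). In 12w-res against 6w+dox it was *Aif1* (-0.53 to 0.36). At 3d -dox these were *Aif1* (-0.091 to 0.17), *C1qa* (-0.33 to 0.27), *C1qc* (-0.30 to 0.065), *Cd68* (-0.25 to 0.056) and *Trem2* (-0.31 to 0.034), and for 5d -dox against 1d -dox *Adgre1* (-0.27 to 0.022), *Csf1r* (-0.28 to 0.12) and *Ptprc* (-0.33 to 0.12). The call of *Trem2* in 12w-res against 6w+dox, with a log2 fold change of 1.05, was lost without 12w-res replicate 3 or 4 or without any of the 6w+dox replicates (adjusted p = 0.0764, 0.0506 and 0.0586 without replicates 1, 2 and 3).

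The replicate numbers share only a number: same-numbered mice of different groups had a median correlation of deviations of -0.044 in the long-term and 0.0029 in the short-term experiment, and 1 of 11 and 3 of 12 mice correlated best with their own number. Apart from the counts given, the cause of these shifts was not tested. Groups of 3 to 5 mice, 6w+dox without males, sex tied to time after dox removal and the lack of mice never on dox limit what the comparisons show. In the short-term libraries *Aif1* and *Trem2* had 1 to 25 reads per mouse, so that their values there are imprecise.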

Other observations

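Chemoattractants of monocytes differed from the members in their course. Of 8 such genes, 4 fell from 6w+dox to 12w+dox: *Ccl2* (-1.38 ± 0.32 SE, adjusted p = 0.00842, from a mean of 3.02 to 0.819 FPM), *Ccl7* (-1.21), *Cxcl12* (-1.01) and *Cx3cl1*, the ligand of CX3CR1 (-0.75 ± 0.18 SE, adjusted p = 0.00981). In 12w-res against 12w+dox 5 rose, among them *Ccl7* (1.37), *Cxcl12* (1.21) and the chemokine receptor gene *Ccr2* (1.15). *Cx3cl1* averaged 152 FPM at 6w+dox, 90.9 FPM at 12w+dox and 97.4 FPM in 12w-res, and its difference between the last groups, 0.09 ± 0.16 (SE, adjusted p = 0.686), did not pass. With libraries scaled to totals 1 of the 8, *Ccl2*, fell from 6w+dox to 12w+dox, and in 12w-res against 12w+dox 1 rose, *Ccl7* (0.82), and 1 fell, *Cx3cl1* (-0.57), with a median of 0.23. Against 6w+dox *Ccr2* rose (1.48) and *Cx3cl1* fell (-0.66).

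From 6w+dox to 12w+dox, markers of several other cell types fell. Among them were 2 of 6 endothelial markers (*Emcn* -1.30 and *Tek* -1.04) and 3 of 6 fibroblast markers (*Lum* -1.63, *Dcn* -1.62 and *Pdgfra* -1.59). So were 4 of 6 markers of other hormone cells, led by *Gh* (-4.57), and 2 of 3 neural lobe markers (*Avp* -3.99 and *Oxt* -3.20). The other 2 fibroblast markers had fitted changes above 0 for which none passed as higher. With libraries scaled to totals, 1 endothelial and 3 fibroblast markers fell, and 1 fibroblast marker rose. By that scaling 4 markers of other hormone cells and 2 of the neural lobe fell. Of the 10 members 0 fell, where 12% of all genes did. Fitted changes below 0 that did not pass were found in 5 of the 10, down to -0.55 for *Aif1*. In the short-term mice, the sum of 4 neutrophil markers was 33.5 FPM in 3d -dox replicate 3 and at most 2.94 FPM in the 12 others, and this mouse had the lowest summed level of the members in its group, 14.6 FPM beside 21.3 and 29.5 FPM.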
